A study of Mus musculus with 8 samples.

Results

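A set of 10 genes that build the cytoskeleton, the growth cone and the synapse of neurons was followed in RNA-seq libraries of mouse embryonic stem cells (ESCs) and of neural precursor cells (NPCs) derived from them. They are *Tubb3*, *Dcx*, *Map2*, *Mapt*, *Stmn2*, *Stmn3*, *Gap43*, *Ncam1*, *Syn1* and *Snap25*, chosen by symbol as structural genes of postmitotic neurons, and they are 10 of the 26263 genes in the count tables. All 10 were found and all 10 passed the filter on low counts. NPCs were collected at day 12 of *in vitro* corticogenesis, in which ESCs grown with LIF, BMP4 and a GSK3-β inhibitor are moved to a medium with B27 and dorsomorphin homolog 1 on Matrigel. Each stage was read in both reciprocal crosses of C57BL/6J (B6) and JF1, an inbred strain derived from *Mus musculus molossinus*. The mother is B6 in the B/J cells (line BJE2), with JF1 as the father, and the reverse holds for the J/B cells (line JBE6). Only male lines were used and each cross is represented by 1 line, so a difference between crosses cannot be told apart from a difference between lines. There were 2 replicates in each of the 4 groups, 8 libraries in all. The labels do not say whether replicates were separate cultures, so the p-values measure only the spread between these libraries, which may be technical.

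The genes belong to 3 parts of the neuron. *Tubb3* encodes the β-tubulin used as the classical neuronal marker, *Map2* and *Mapt* encode microtubule-associated proteins enriched in dendrites and in axons, *Dcx* stabilizes microtubules in migrating young neurons, and *Stmn2* and *Stmn3* belong to the stathmins, which bind tubulin dimers and promote microtubule turnover. *Gap43* encodes a membrane-bound protein of growth cones, and *Ncam1* a cell adhesion molecule of the immunoglobulin superfamily. *Syn1* encodes synapsin I, which tethers synaptic vesicles, and *Snap25* a plasma membrane SNARE protein needed for vesicle fusion. In the embryonic cortex, such genes are known to rise as precursors leave the cell cycle and become neurons. Many neuronal genes are silenced outside neurons by the repressor REST, which is itself reduced during neurogenesis.

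The promoters of these genes differ in base composition, and 3 of them are shown, those of *Dcx* and *Map2* as the extremes in CpG number and that of *Syn1* for its match to a known motif. RefSeq promoter sequences (GRCm38.p6, 250 bases before to 50 bases after the start of the gene) matched 5 of the 10 genes, namely *Tubb3*, *Dcx*, *Map2*, *Stmn3* and *Syn1*. Each matched its own chromosome in GRCm39 exactly once, searched in the orientation of the gene, which gave the positions used here. Other chromosomes were not searched. The *Dcx* promoter (chrX:142716071-142716370, minus strand, the first of the 2 starts in the table) and the *Map2* promoter (chr1:66214238-66214537, plus strand) are printed 5′ to 3′ with every CpG in capitals. The *Syn1* promoter (chrX:20787108-20787407, minus strand) is printed with the part that resembles the binding motif of REST in capitals.
Dcx: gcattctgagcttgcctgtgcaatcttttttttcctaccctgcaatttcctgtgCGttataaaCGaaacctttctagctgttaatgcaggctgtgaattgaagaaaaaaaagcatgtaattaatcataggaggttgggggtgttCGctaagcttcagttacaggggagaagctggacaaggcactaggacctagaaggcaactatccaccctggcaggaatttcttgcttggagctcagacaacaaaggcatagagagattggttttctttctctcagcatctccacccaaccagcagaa
Map2: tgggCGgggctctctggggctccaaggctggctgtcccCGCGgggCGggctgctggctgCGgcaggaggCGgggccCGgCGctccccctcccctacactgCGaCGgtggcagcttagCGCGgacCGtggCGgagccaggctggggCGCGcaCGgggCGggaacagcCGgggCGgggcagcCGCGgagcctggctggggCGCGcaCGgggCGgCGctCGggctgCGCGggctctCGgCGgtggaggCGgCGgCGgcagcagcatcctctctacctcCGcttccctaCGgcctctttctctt
Syn1: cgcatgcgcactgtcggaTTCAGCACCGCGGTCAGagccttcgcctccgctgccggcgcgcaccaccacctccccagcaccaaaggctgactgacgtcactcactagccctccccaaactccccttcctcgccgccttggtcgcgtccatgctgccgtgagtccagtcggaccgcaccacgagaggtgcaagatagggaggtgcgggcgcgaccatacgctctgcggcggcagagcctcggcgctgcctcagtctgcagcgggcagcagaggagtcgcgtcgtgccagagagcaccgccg

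The *Dcx* promoter held 3 CpGs, the *Stmn3* promoter 6, the *Tubb3* promoter 26, the *Syn1* promoter 33 and the *Map2* promoter 37. Across the 32851 promoters of the table the median was 7, and 31.4% had no more CpGs than *Dcx* whereas 95% had no more than *Map2*. *Tubb3*, *Syn1*, *Map2* and *Stmn3* were all read in every ESC library, and *Dcx* was nearly absent there. A link between CpG number and level was not tested. The REST motif was searched on both strands as the letters TTCAGCACC, 2 positions of any base, and GGACAG, which makes 15 fixed letters. The *Syn1* promoter matched 14 of these letters as TTCAGCACCGCGGTCAG, from 232 to 216 bases before the start (positions -232 to -216), with the single substitution A14T (motif base first, position counted from 1 at the 5′ end of the motif, then the promoter's base). Matches with at most 1 mismatch were found in 19 promoters, 0.0578% of the table. The best match in the *Tubb3* promoter had 5 mismatches and that in *Dcx*, *Map2* and *Stmn3* had 6, which 47.2% and 94.5% of all promoters reach. These matches describe letters only.

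The reads assigned to genes numbered 22537138 to 32706015 in a library. Levels are given as CPM, counts per 1000000 of these totals, after scaling with TMM factors, which correct for differences in composition between libraries and ran from 0.820 to 0.885 in ESCs and from 1.14 to 1.21 in NPCs. A single count equals 0.0256 to 0.0533 CPM on this scale. The stage labels were checked with *Pou5f1*, a pluripotency factor, which stood at 1527 to 2378 CPM in ESCs and at 17.1 to 49.98 CPM in NPCs, and with *Nes*, the neural precursor filament gene, at 15.0 to 47.9 CPM and 66.6 to 249 CPM. *Pax6*, a transcription factor of cortical precursors, ranged from 1.23 to 16.9 CPM in ESCs and from 6.98 to 45.9 CPM in NPCs, so its stages overlapped (adjusted p = 0.0606, edgeR), and it passed as higher with library totals in place of TMM (adjusted p = 0.0293) and with scaling to 3 housekeeping genes (adjusted p = 0.0272).

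Over both crosses, 6 of the 10 genes were higher in NPCs than in ESCs, 1 was lower and 3 did not pass the test. *Dcx*, *Snap25*, *Gap43*, *Ncam1*, *Map2* and *Tubb3* rose, *Stmn2* fell, and *Mapt*, *Stmn3* and *Syn1* did not pass. The quasi-likelihood test of edgeR was used, with p-values adjusted by the Benjamini-Hochberg method over 16399 genes and called below 0.05. By the same test 37.5% of all genes were higher in NPCs and 31.9% were lower. The median log2 fold change of the 10 genes was 1.88, against 0.17 over all genes tested. In bulk samples, fewer cells that express a gene and less RNA per cell cannot be told apart. Every NPC library lay above every ESC library for 5 of the 10 genes (35.3% of all genes) and below for 1 (31.2%). A block for replicate number within each stage was added to the edgeR fit after seeing the data. With it *Mapt* (1.11, adjusted p = 0.00954) and *Stmn3* (0.73, adjusted p = 0.0064) also passed as higher, as did 42.5% of all genes.

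**Figure D1:**
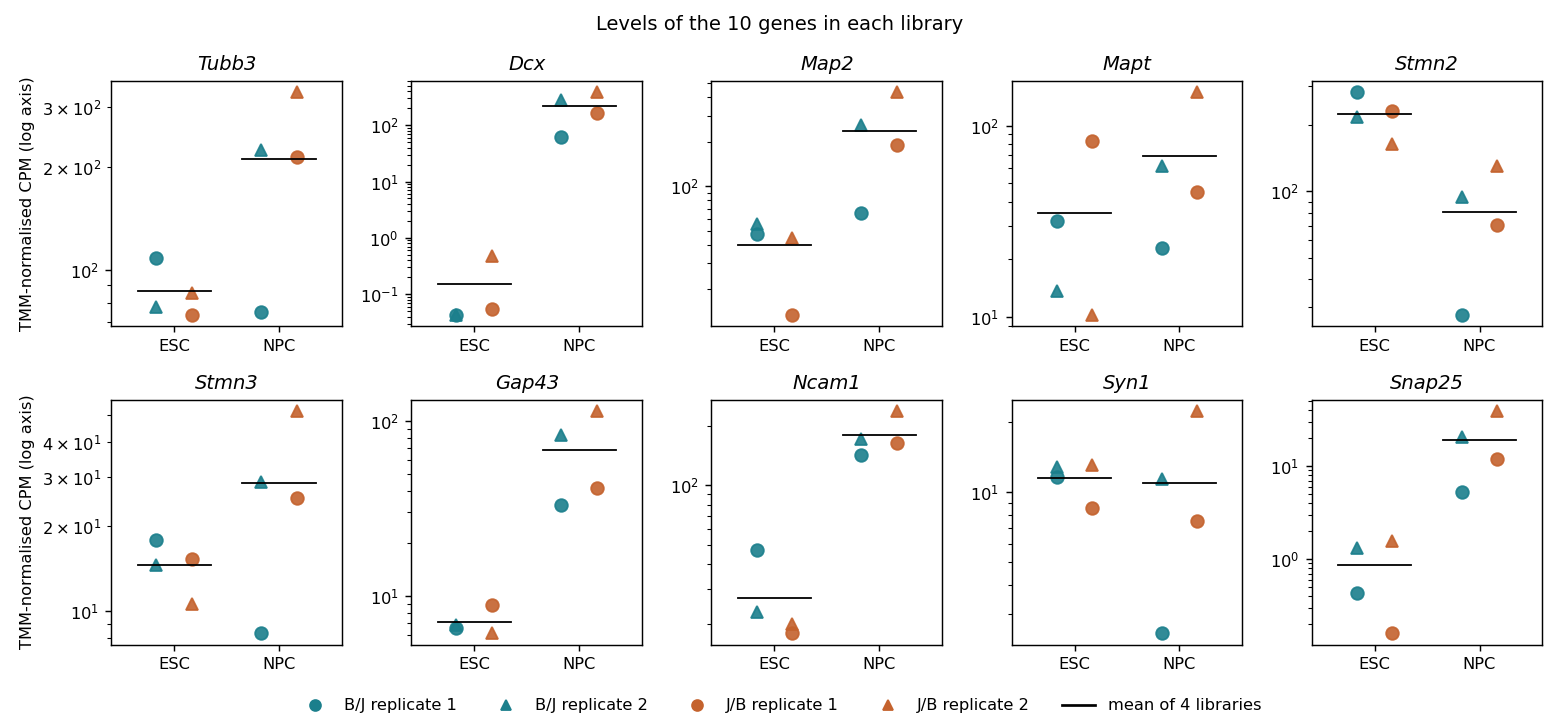
Levels of the 10 genes in each of the 8 libraries, as TMM-normalised CPM on log axes, with B/J in blue-green, J/B in orange, replicate 1 as circles, replicate 2 as triangles and the mean of 4 libraries as a line. The NPC libraries of *Dcx*, *Map2*, *Gap43*, *Ncam1* and *Snap25* all lie above the ESC libraries, those of *Stmn2* all lie below, and the stages overlap for the other 4 genes.

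*Dcx* showed the largest change of the 10. It lies at chrX:142638838-142716307 (GRCm39, minus strand), and its canonical transcript has 7 exons and 9071 bp. In ESCs, B/J replicates 1 and 2 and J/B replicate 1 each held 1 count (0.0434, 0.0428 and 0.0533 CPM), and J/B replicate 2 held 11 counts (0.469 CPM). In NPCs the levels were 62.9 and 277 CPM in B/J replicates 1 and 2, and 162 and 387 CPM in J/B replicates 1 and 2. No NPC library came near an ESC library. The fitted log2 fold change was 10.86 (standard error 0.855, adjusted p = 4.03e-05, edgeR), a value that depends on how the fit treats the few ESC counts. Pooled over the libraries of each stage, 14 ESC counts and 29179 NPC counts gave a ratio of 1354 with a 95% exact binomial interval of 807 to 2476, which covers counting error only. A single ESC library decided the size of this ratio, since without J/B ESC replicate 2 it was 4645 (1589 to 22525).

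*Tubb3* (chr8:124138163-124150092, plus strand, 4 exons, 3206 bp) was already read in ESCs. Its level there was 108 and 77.8 CPM in B/J and 73.6 and 85.4 CPM in J/B, a mean of 86.3 ± 15.5 CPM (SD, n = 4 libraries). In NPCs it was 74.9 and 224 CPM in B/J and 214 and 331 CPM in J/B, a mean of 211 ± 105 CPM. Replicate 1 of the B/J NPCs lay within the range of the ESCs, and the other 3 NPC libraries lay above it. *Tubb3* rose 2.35-fold (log2 fold change 1.23, standard error 0.337, adjusted p = 0.0122, edgeR). The rise passed the test without each library in turn, with a fold between 1.65 (without B/J NPC replicate 2) and 2.86 (without B/J NPC replicate 1). Among the 4 libraries with number 1 alone (replicate 1 of each group) it was 0.51 on the log2 scale.

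*Map2* (chr1:66214327-66481746, plus strand, 15 exons, 9705 bp) stood at 47.3 and 55.4 CPM in B/J ESCs and at 13.4 and 44.8 CPM in J/B ESCs. The NPC levels were 65.5 and 257 CPM in B/J and 190 and 433 CPM in J/B, all above the ESCs, although the lowest NPC library exceeded the highest ESC library by little. The rise was 5.79-fold (log2 fold change 2.53, standard error 0.547, adjusted p = 0.00406, edgeR). Left-out libraries moved the fold between 3.67 (without B/J NPC replicate 2) and 8.59 (without J/B ESC replicate 2). Among the libraries with number 1 alone (replicate 1 of each group), the log2 fold change was 2.14.

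*Mapt*, the tau gene (chr11:104122024-104222946, plus strand, 11 exons, 6345 bp), overlapped between the stages. ESC levels were 31.6 and 13.7 CPM in B/J and 83.5 and 10.3 CPM in J/B. NPC levels were 23.1 and 61.3 CPM in B/J and 45.2 and 149 CPM in J/B. The highest ESC library, J/B replicate 1, exceeded 3 of the 4 NPC libraries. The log2 fold change was 0.98 (standard error 0.690, adjusted p = 0.236, edgeR). Without J/B ESC replicate 1 it was 2.07 (adjusted p = 0.0186). Among the libraries with number 2 alone it passed as well (2.995, adjusted p = 0.02), whereas with number 1 alone it was -0.66 (adjusted p = 0.0788). That same library had the lowest *Map2* level and, at 76.3 CPM, the highest summed level of 10 fibroblast markers among the ESCs, where the other 3 libraries had 8.33 to 15.9 CPM. The part of these differences in the *Mapt* level was not tested.

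*Stmn2* (chr3:8574151-8626667, plus strand, 5 exons, 2139 bp) went the other way. In ESCs it stood at 283 and 218 CPM in B/J and at 231 and 164 CPM in J/B, a mean of 224 ± 48.7 CPM (SD, n = 4 libraries). In NPCs it stood at 27.5 and 94.7 CPM in B/J and at 70.1 and 130 CPM in J/B, a mean of 80.6 ± 43.1 CPM. All 4 NPC libraries lay below all 4 ESC libraries. The fall was 2.84-fold (log2 fold change -1.51, standard error 0.390, adjusted p = 0.0095, edgeR), and the fold lay between 2.29 (without B/J NPC replicate 1) and 4.26 (without B/J NPC replicate 2) with each library left out. When *Gapdh*, *Gusb* and *Tbp*, 3 housekeeping genes, set the scale of the libraries instead of TMM, the direction stayed but the change no longer passed (log2 fold change -0.82, adjusted p = 0.122). With TMM, the log2 fold change was -2.53 among the libraries with number 1 alone and -0.78 among those with number 2 alone.

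*Stmn3* (chr2:180948247-180956293, minus strand, 5 exons, 1136 bp), the other stathmin of the set, did not fall with *Stmn2*. Its ESC levels were 17.8 and 14.6 CPM in B/J and 15.4 and 10.6 CPM in J/B. Its NPC levels were 8.32 and 28.7 CPM in B/J and 25.3 and 51.6 CPM in J/B, so B/J NPC replicate 1 lay below all ESC libraries and the other 3 lay above them. The log2 fold change of 0.88 (standard error 0.411) did not pass (adjusted p = 0.0888, edgeR). It passed without B/J NPC replicate 1 (1.19, adjusted p = 0.0116), with library totals in place of TMM (1.37, adjusted p = 0.0203), with housekeeping scaling (1.57, adjusted p = 0.0173), in DESeq2 (0.89, adjusted p = 0.0455) and among the libraries with number 2 alone (1.62, adjusted p = 0.015), but not with number 1 alone (-0.18, adjusted p = 0.799).

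*Gap43* (chr16:42068805-42161086, minus strand, 3 exons, 1492 bp) had closely spaced ESC levels of 6.51 and 6.84 CPM in B/J and 8.80 and 6.09 CPM in J/B. The NPC levels were 33.04 and 82.9 CPM in B/J and 41.6 and 115 CPM in J/B. The groups did not overlap. *Gap43* rose 9.54-fold (log2 fold change 3.25, standard error 0.423, adjusted p = 0.000332, edgeR). Its fold stayed between 6.97 and 11.5 with any single library left out. On the log2 scale the rise was 2.30 among the libraries with number 1 alone and 3.90 among those with number 2 alone.

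*Ncam1* (chr9:49413436-49710357, minus strand, 18 exons, 6182 bp) was the member whose NPC replicates lay closest together. ESC levels were 47.0 and 23.0 CPM in B/J and 17.9 and 19.99 CPM in J/B, and NPC levels were 143 and 172 CPM in B/J and 164 and 239 CPM in J/B. All NPC libraries were well above all ESC libraries. The rise was 6.91-fold (log2 fold change 2.79, standard error 0.255, adjusted p = 6.87e-05, edgeR), with a fold of 5.98 to 8.55 when single libraries were left out.

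*Syn1* (chrX:20726750-20787397, minus strand, 13 exons, 3415 bp), the gene with the REST-like promoter sequence printed above, did not differ detectably between the stages. ESC levels were 11.6 and 12.7 CPM in B/J and 8.53 and 13.1 CPM in J/B. NPC levels spread on both sides of these, at 2.48 and 11.4 CPM in B/J and at 7.52 and 22.3 CPM in J/B. The log2 fold change was -0.17 with a 95% interval of -1.38 to 1.03 (adjusted p = 0.777, edgeR), so a change of 1 log2 unit in either direction lay within it. Its sign was positive with library totals (0.31) and with housekeeping scaling (0.50), again without passing.

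*Snap25* (chr2:136533580-136624362, plus strand, 8 exons, 2287 bp) was low in ESCs, with 10 and 31 counts in B/J (0.434 and 1.33 CPM) and 3 and 37 counts in J/B (0.160 and 1.58 CPM). NPC levels were 5.21 and 20.5 CPM in B/J and 12.0 and 39.3 CPM in J/B, all above the ESCs. The rise was 20.4-fold (log2 fold change 4.35, standard error 0.819, adjusted p = 0.0021, edgeR). The pooled counts gave a ratio of 20.1 with an exact binomial interval of 16.1 to 25.4. The fitted fold was 47.9 without J/B ESC replicate 2 and 12.9 without B/J NPC replicate 2, so the size, but not the call, rested on single libraries.

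**Figure D2:**
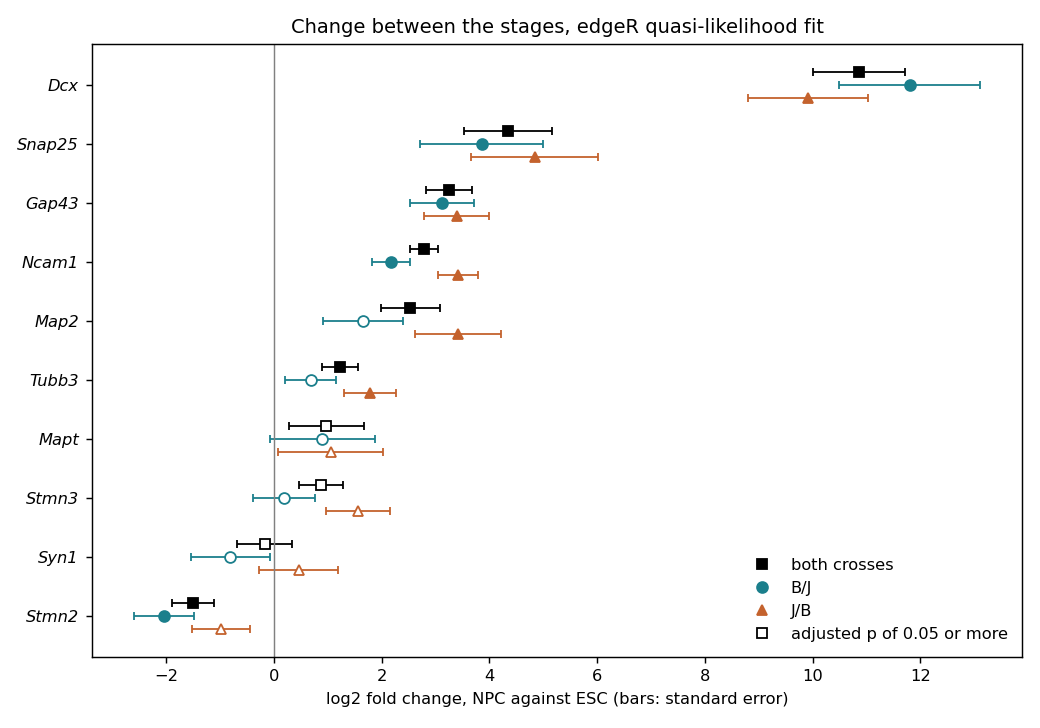
Log2 fold change of NPC against ESC (x axis) for each of the 10 genes over both crosses (black squares), within B/J (circles) and within J/B (triangles), with standard errors as bars and open symbols where the adjusted p was 0.05 or more. *Dcx* lies near 10.86, *Stmn2* is the only gene with all 3 values below 0 and *Map2* and *Tubb3* are called within J/B and not within B/J.

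Corrected for transcript length, the order of the genes changed between the stages. Per kb of the canonical transcript, *Stmn2* had the highest level of the set in ESCs, at 105 CPM per kb, followed by *Tubb3* at 26.9 and *Stmn3* at 12.9. The ranges over the 4 ESC libraries of these 3 did not overlap, from 76.6 to 132, from 23.0 to 33.8 and from 9.34 to 15.7 CPM per kb. *Mapt* (5.48), *Gap43* (4.73), *Ncam1* (4.36), *Map2* (4.14) and *Syn1* (3.36) came next, each overlapping its neighbours in range, although *Syn1* (2.50 to 3.83) lay below *Gap43* (4.08 to 5.90), and the range of *Mapt* also reached that of *Stmn3*. *Snap25* (0.382) and *Dcx* (0.0168) were last, each below the range of the gene before it. In NPCs *Tubb3* led at 65.8 CPM per kb, ahead of *Gap43* at 45.6, *Stmn2* at 37.7, *Ncam1* at 29.0, *Stmn3* at 25.1, *Dcx* at 24.5 and *Map2* at 24.4. Each of these neighbours overlapped in range, as did *Mapt* (11.0), *Snap25* (8.42) and *Syn1* (3.20) at the end. *Dcx* moved from last to the middle of the set.

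**Figure D3:**
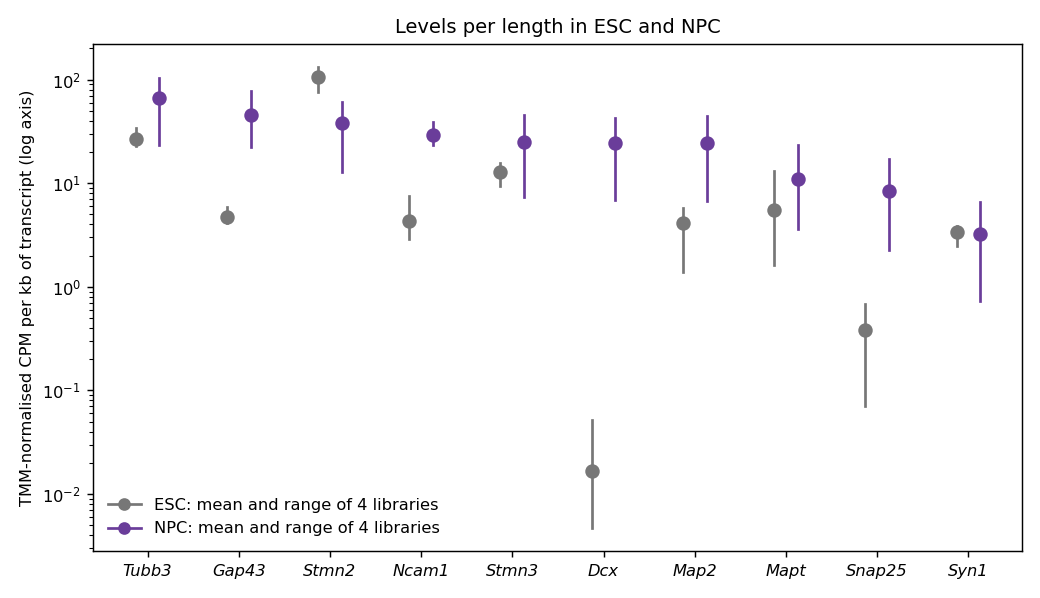
Level of each gene per kb of its canonical transcript, as TMM-normalised CPM per kb on a log axis, with the mean (point) and range (line) of 4 ESC libraries in grey and of 4 NPC libraries in purple. *Stmn2* is the highest gene in ESC at 105 CPM per kb, and *Tubb3* the highest in NPC at 65.8.

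Exons of 6 of the 10 genes share bases with a gene annotated on the opposite strand, and the sources used here do not give whether counting used the strand. The shared stretches are 124 bp of *Map2* with *Gm10558*, 121 and 101 bp of *Mapt* with *Gm11659* and *Gm72530*, 69 bp of *Stmn3* with *Gm75108*, 417 bp of *Ncam1* with *Gm11149*, 23 and 41 bp of *Syn1* with *Araf* and *Gm61816*, and 11 bp of *Snap25* with *Gm32659*. Of these partners only *Gm11149* and *Araf* have entries of their own in the count tables. *Gm11149* had 0 to 9 counts in every library, against 335 or more for *Ncam1*. *Araf*, a kinase gene, stood at 56.3 to 91.4 CPM throughout, above every *Syn1* level (2.48 to 22.3 CPM). *Timp1*, a protease inhibitor gene within *Syn1*, shares no exon bases with it and stood at 3.17 to 23.0 CPM.

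Within B/J, 4 of the 10 genes were higher in NPCs, namely *Dcx*, *Gap43*, *Ncam1* and *Snap25* (30.1% of all genes were higher), and *Stmn2* was lower (25.6% of all genes). Within J/B, 6 were higher, the same 4 and *Map2* and *Tubb3* (29.1% of all genes), and none was lower (25.3% of all genes). *Map2* changed by 1.65 on the log2 scale in B/J (standard error 0.749, adjusted p = 0.094) and by 3.41 in J/B (standard error 0.803, adjusted p = 0.00928). In B/J it passed in DESeq2 (1.66, adjusted p = 0.0273) and in a fit of only the 4 B/J libraries (1.65, adjusted p = 0.0361), and it was 0.36 (adjusted p = 0.701) without NPC replicate 2. *Tubb3* changed by 0.68 in B/J (adjusted p = 0.247) and by 1.78 in J/B (adjusted p = 0.0165). *Stmn2* changed by -2.04 in B/J (adjusted p = 0.0169) and by -0.98 in J/B (adjusted p = 0.16). All other values here are from edgeR. The called changes of *Map2* and *Stmn2* depended on single libraries for their size. *Map2* changed 10.7-fold in J/B, 23.4-fold without ESC replicate 2, 6.94-fold without ESC replicate 1 and 6.47-fold without NPC replicate 2. *Stmn2* fell 4.10-fold in B/J, 9.10-fold without NPC replicate 2 and 2.64-fold without NPC replicate 1.

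Several of these calls within 1 cross changed with single libraries or with the method. *Snap25* did not pass in B/J in limma-voom (adjusted p = 0.0648) or without a filter on low counts (adjusted p = 0.0568). *Stmn3* passed in J/B with library totals (adjusted p = 0.0228), housekeeping scaling (0.0192), DESeq2 (0.0148) and the 4 J/B libraries alone (0.0265). *Stmn2* did not pass in B/J with housekeeping scaling (-1.46, adjusted p = 0.0795). In B/J, *Tubb3* (1.27, adjusted p = 0.0207) and *Map2* (2.33, adjusted p = 0.0317) passed without NPC replicate 1, *Stmn2* did not pass without ESC replicate 1 (-1.84, adjusted p = 0.0742), and *Syn1* was lower without NPC replicate 2 (-2.29, adjusted p = 0.0443). *Snap25* did not pass in B/J without ESC replicate 1 (adjusted p = 0.124), ESC replicate 2 (0.0576) or NPC replicate 2 (0.11). In J/B, *Tubb3* did not pass without ESC replicate 1 (adjusted p = 0.0738) or NPC replicate 2 (0.0902), *Snap25* did not pass without NPC replicate 2 (0.056), and *Mapt* passed without ESC replicate 1 (3.24, adjusted p = 0.0365). *Stmn3* passed in J/B without NPC replicate 1 (1.97, adjusted p = 0.0487), and *Stmn2* and *Stmn3* passed in J/B when either B/J NPC library was left out of the shared fit.

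The difference between the crosses was tested directly. For the interaction of stage and cross, edgeR called none of the 10 genes and 0% of all genes, although 1 of the 10 and 573 of all genes had an unadjusted p below 0.05. DESeq2 called 11 genes and limma-voom 0 over all genes, and neither called any of the 10. The log2 fold change was more positive in J/B for 9 of the 10 genes, by 0.16 (*Mapt*) to 1.76 (*Map2*), and less positive for *Dcx* (-1.89). The gene with the low unadjusted p was *Ncam1* (1.24, 95% interval 0.13 to 2.36, unadjusted p = 0.0335, adjusted p = 0.9999).

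Between the crosses in NPCs, the mean of J/B was above that of B/J for all 10 genes, by 0.36 (*Ncam1*) to 1.21 (*Mapt*) on the log2 scale. None passed the test (lowest adjusted p = 0.77), 0.0061% of all genes did, and none of the 10 had an unadjusted p below 0.05, against 1050 of all genes. J/B replicate 1 lay above B/J replicate 1, and J/B replicate 2 above B/J replicate 2, for all 10 genes, as they did for 33% of all genes tested. Both J/B replicates exceeded both B/J replicates for none of the 10, since B/J replicate 2 lay above J/B replicate 1 in each. Between the crosses in ESCs, the fitted change was towards J/B for 4 of the 10 genes, counting *Snap25* at 0.018, whose mean level was lower in J/B (0.868 against 0.880 CPM), and towards B/J for 6. None passed and 0% of all genes did, with 346 genes at an unadjusted p below 0.05. *Ncam1* was the only one of the 10 among these (-0.89, unadjusted p = 0.034), with its highest ESC level, 47.0 CPM, in B/J replicate 1. DESeq2 called 70 genes in NPCs and 10 in ESCs, limma-voom 1 and 0, and neither called any of the 10.

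The replicates of the NPCs differed in all of these genes. Replicate 2 was above replicate 1 in both crosses for 10 of the 10 genes, as it was for 32.6% of all genes tested. In B/J the ratio of replicate 2 to replicate 1 ran from 1.20 (*Ncam1*) to 4.61 (*Syn1*) with a median of 3.45, and in J/B from 1.45 (*Ncam1*) to 3.31 (*Mapt*) with a median of 2.34. Over all genes tested the median ratios were 0.993 and 1.002. In ESCs there was no such shift, with replicate 2 above replicate 1 for 4 of the 10 in B/J and for 6 in J/B. The labels name no batch, and they list 2 library kits and 2 sequencers without saying which library had which, so their part in this difference was not tested.

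The marker lists of other cell types moved differently between the NPC replicates. The summed level of 11 neuron markers was 144 and 458 CPM in B/J replicates 1 and 2 and 393 and 711 CPM in J/B, and 10 of the 11 were above in replicate 2 of both crosses. Of 10 neural precursor markers 1 was, with sums of 390 and 785 CPM in B/J and 1093 and 942 CPM in J/B. Of 10 trophoblast markers none was, and their sums were 3548 and 1881 CPM in B/J and 1839 and 1256 CPM in J/B. Fibroblast markers also had none of 10, with sums of 1947 and 1438 CPM in B/J and 794 and 1928 CPM in J/B. Pluripotency markers had 7 of 10, with sums of 174 and 349 CPM in B/J and 95.9 and 152 CPM in J/B. The B/J NPC replicate 1, lowest of the NPC libraries for every one of the 10 genes, had the lowest neuron and precursor sums and the highest trophoblast sum. Its fibroblast sum of 1947 CPM lay close to the 1928 CPM of J/B replicate 2, the NPC library highest for every one of the 10 genes. No gene of any of these lists was at 0 in all NPC libraries. The part of cell composition in the levels of the 10 genes was not tested.

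**Figure D4:**
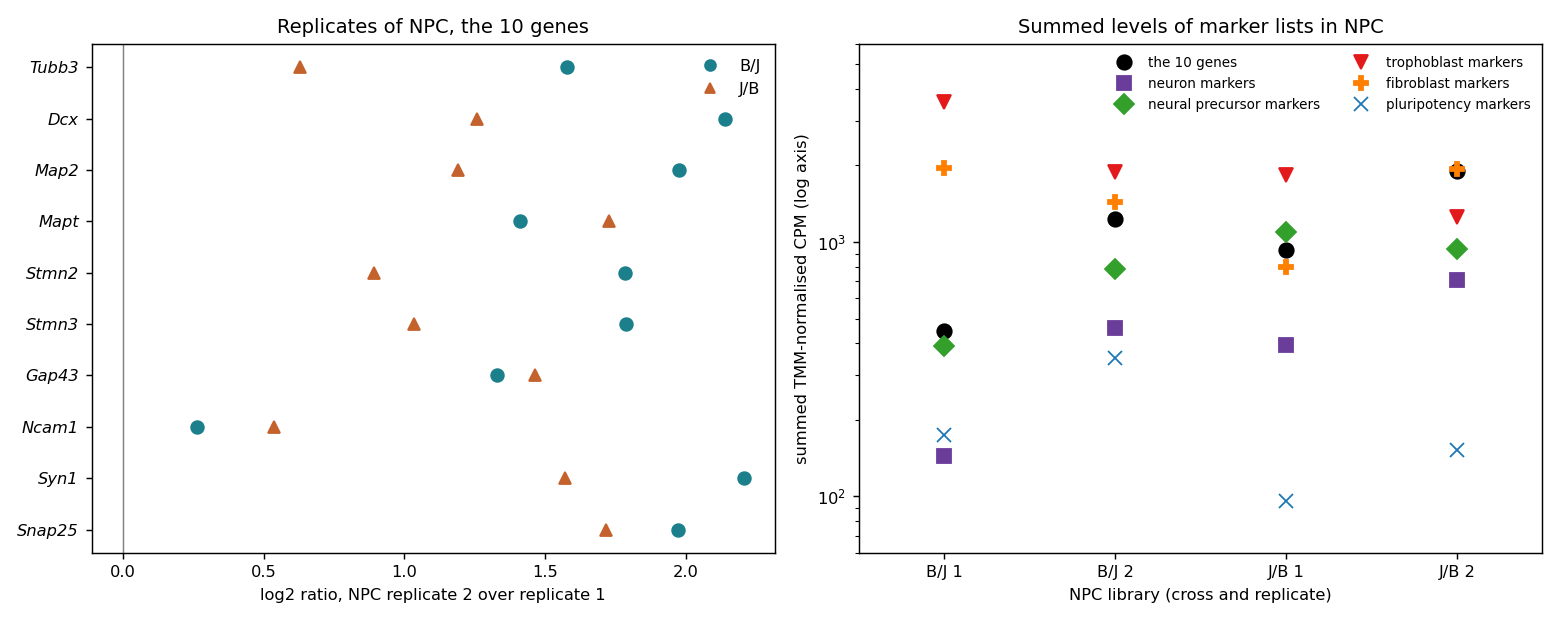
Left, log2 ratio of NPC replicate 2 to replicate 1 (x axis) for each of the 10 genes in B/J (circles) and J/B (triangles). Right, summed TMM-normalised CPM of the 10 genes and of marker lists in each NPC library on a log axis. All 20 ratios lie above 0. In B/J replicates 1 and 2 and J/B replicates 1 and 2, the sums of the 10 genes are 446, 1229, 931 and 1897 CPM. In the same order the trophoblast sums are 3548, 1881, 1839 and 1256 CPM and the fibroblast sums 1947, 1438, 794 and 1928 CPM.

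Between the stages, 9 of the 11 neuron markers were higher in NPCs and none was lower, with a median log2 fold change of 6.22. Beside this and the lists below, 37.5% of all genes were higher and 31.9% lower by the same test with TMM. *Nhlh1*, a transcription factor of newborn neurons, was at 0 counts in all ESC libraries and 14.5 to 42.1 CPM in NPCs, at least 971-fold higher against a floor of 3 counts over the 4 ESC libraries. *Elavl3*, a neuronal RNA-binding protein gene, had the highest mean NPC level at 108 CPM, and its relative *Elavl2* did not pass (-0.29 with TMM, 0.18 with library totals). Of the neural precursor markers 9 of 10 were higher and none lower (median 2.26), led by *Fabp7* (8.52), with the smallest change in *Notch1* (1.01), which had the highest mean NPC level at 169 CPM. The pluripotency markers were all lower (10 of 10, median -5.79). *Pou5f1* fell most (-6.26), *Klf4* least (-3.65) and kept the highest mean NPC level at 41.1 CPM.

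Most trophoblast and fibroblast markers were higher in NPCs as well, where 37.5% of all genes were higher and 31.9% lower. Of 10 trophoblast markers 9 were higher and none lower (median 5.48), with *Tpbpa* at least 7004-fold higher against the same floor, *Tfap2c* at 0.90 (adjusted p = 0.052, but 0.0126 with library totals and 0.0101 with housekeeping scaling) and *Krt8* at the highest mean NPC level, 815 CPM. Of 10 fibroblast markers 9 were higher and none lower (median 6.66), with *Lum* at 10.75, *Thy1* at -0.52 (adjusted p = 0.278) and *Col3a1* highest at 789 CPM. *Ncam1* is also known from cells other than neurons. Of 10 glial markers 3 were higher and 3 lower (median 0.33), close to the shares over all genes. Among them *S100b* was at 0.342 CPM after 0 ESC counts (at least 10.4-fold higher), *Olig1* at -4.23 and *Mbp* highest at 26.0 CPM. Of 10 striated muscle markers 5 were higher and 2 lower (median 1.37), with *Actc1* at 4.74, *Ttn* at -2.42 and *Myl4* highest at 8.48 CPM. *Ttn* was at 22.5 CPM in J/B ESC replicate 1 and at 0.47 to 3.56 CPM in the other ESC libraries, and neither it (adjusted p = 0.0679 with library totals, 0.0927 with housekeeping scaling) nor the other lower gene passed with these scalings.

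The other genes of the same structures mostly rose. Of 17 further neuronal microtubule genes, 15 were higher in NPCs, none was lower and 2 did not pass, and the median log2 fold change was 1.79. *Stmn4*, the fourth stathmin, changed most (fitted 10.36, from 0 to 0.299 CPM in ESCs to 11.6 to 65.9 CPM in NPCs). *Map1a* changed least (-0.04 with TMM and 0.46 with library totals, adjusted p = 0.939 and 0.317). *Tuba1a*, the main α-tubulin of developing neurons, had the highest mean NPC level, 1019 ± 284 CPM after 447 ± 101 CPM in ESCs (log2 fold change 1.18, adjusted p = 0.00114). All 17 were above in replicate 2 of the NPCs in both crosses. Among the libraries with number 1 alone 8 of the 17 were called higher, in a fit that called 24.2% of all genes higher in place of 37.5%.

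The neuronal intermediate filament genes did not move together. Of 5, *Nefm* was higher (2.79, adjusted p = 0.000392), *Nefh* (-4.44, adjusted p = 0.000115) and *Prph* (-2.12, adjusted p = 0.00204) were lower, and *Nefl* (1.41, adjusted p = 0.0595) and *Ina* (0.20, adjusted p = 0.797) did not pass. *Nefh*, the heavy neurofilament subunit, went from 20.05 to 34.5 CPM in ESCs to 0.484 to 2.04 CPM in NPCs. *Prph* is the filament of peripheral neurons. *Nefl* had the highest mean NPC level at 202 CPM, and it passed with library totals (1.88, adjusted p = 0.0253) and housekeeping scaling (2.05, adjusted p = 0.0243).

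All 12 growth cone and axonal adhesion genes were higher in NPCs, with a median log2 fold change of 3.74. *Ncam2*, the close relative of *Ncam1*, had 0 counts in every ESC library and 0.57 to 6.94 CPM in NPCs, at least 76.6-fold higher against the floor of 3 counts over the 4 ESC libraries. The size of this bound rests largely on J/B NPC replicate 2, which held 215 of the 354 NPC counts. *Cntnap2*, a contactin-associated protein gene, changed least (1.48, adjusted p = 0.0279). *Marcks*, which like *Gap43* and *Basp1* encodes a membrane-bound calmodulin-binding protein, had the highest mean NPC level at 750 CPM.

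Of 21 synaptic vesicle and release genes, 18 were higher, 1 was lower and 2 did not pass, with a median of 2.27. *Syn2*, the relative of *Syn1*, changed most (5.58, adjusted p = 0.00064, from at most 0.128 CPM in ESCs to 0.94 to 8.59 CPM in NPCs). *Syn3*, the third synapsin, named here after its values were seen, was also higher (5.06), so *Syn1* alone of the 3 synapsins did not pass. *Nsf*, the ATPase that takes SNARE complexes apart in all cells, was lower (-0.90, adjusted p = 0.000656), although not with housekeeping scaling (-0.26, adjusted p = 0.118). *Vamp2*, the vesicle SNARE that pairs with *Snap25*, had the highest mean NPC level, 90.6 ± 17.8 CPM after 24.7 ± 4.06 CPM in ESCs. Among the libraries with number 1 alone 11 of the 21 were called higher (24.2% of all genes).

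Of 13 postsynaptic scaffold genes, 9 were higher, 1 was lower and 3 did not pass, with a median of 1.80. *Dlg2*, a relative of the PSD-95 gene *Dlg4*, had 0 ESC counts and 0.883 to 4.26 CPM in NPCs, at least 55.2-fold higher. The size of this bound rests largely on J/B NPC replicate 2, which held 132 of the 255 NPC counts. *Camk2b*, a calcium/calmodulin-dependent kinase gene, fell (-1.90, adjusted p = 0.00262). *Nlgn2*, the neuroligin of inhibitory synapses, had the highest mean NPC level at 165 CPM. Among the libraries with number 1 alone 5 of the 13 were called higher (24.2% of all genes).

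**Figure D5:**
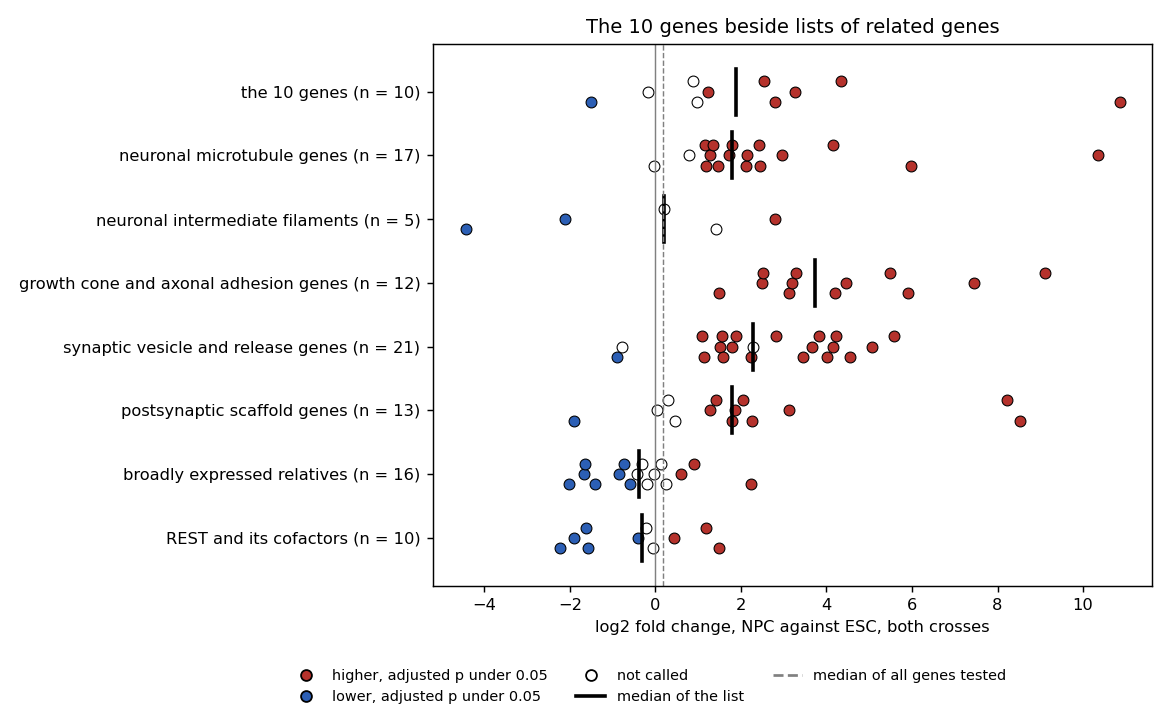
Log2 fold change of NPC against ESC over both crosses (x axis, TMM scaling) for the 10 genes and for lists of related genes, 1 point a gene, red for higher, blue for lower and white for not called at an adjusted p of 0.05, with the median of each list as a bar and the median of all genes tested (0.17) as a dashed line. The medians of the microtubule, growth cone, vesicle and postsynaptic lists lie between 1.79 and 3.74, and that of the broadly expressed relatives is -0.38 and changes its counts with the scaling.

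Relatives of the 10 genes that are expressed in most cell types moved in both directions. Of 16, 3 were higher, 7 were lower and 6 did not pass, with a median of -0.38, but with library totals or housekeeping scaling 6 were higher and 4 lower. The tubulins *Tubb4b* (-2.01), *Tuba1b* (-1.68) and *Tuba1c* (-1.64) and the microtubule-associated *Map7* (-1.42) were lower under all 3 scalings. *Tubb5* (-0.75) and *Stx3* (-0.85) were lower with TMM only, and so was *Snap23* (-0.60), the broadly expressed relative of *Snap25*, whose value was 0.03 with housekeeping scaling. *Vamp3* (0.61), *Vamp8* (2.24) and *Stx4a* (0.90) were higher under all 3 scalings. *Stmn1* (0.14), *Snap29* (0.24) and *Mapre1* (-0.04 with TMM, 0.44 with totals) passed only with the other scalings, as higher, and *Tubb6* (-0.19), *Map4* (-0.33) and *Snap47* (-0.44), all positive with the other scalings, passed with none. In NPCs, *Tubb5* stood at 1616 to 2133 CPM. Replicate 2 was above replicate 1 in both NPC crosses for 4 of the 16 relatives.

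The scaling moved the median of all genes tested from 0.17 with TMM to 0.65 with library totals and 0.80 with housekeeping genes, and of those genes *Gapdh* itself changed by -1.43 and *Tbp* by -0.69 with TMM. Relative to these medians, *Stmn2* stayed below the median gene under each scaling (-1.02 with library totals, adjusted p = 0.0483), and *Dcx*, *Snap25*, *Gap43*, *Ncam1*, *Map2* and *Tubb3* stayed above it.

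*Rest*, which encodes the repressor of neuronal genes named above, was lower in NPCs. It stood at 256 and 237 CPM in B/J ESCs and 277 and 230 CPM in J/B ESCs, and at 59.8 and 59.9 CPM in B/J NPCs and 49.0 and 45.2 CPM in J/B NPCs (log2 fold change -2.23, adjusted p = 1.47e-05, edgeR). Its NPC replicates lay close together, unlike those of the 10 genes. Of *Rest* and 9 cofactor genes, 3 were higher (37.5% of all genes), 5 were lower (31.9%) and 2 did not pass, with a median of -0.31. *Kdm1a*, named here after its values were seen, was among the lower genes with TMM. It was at 0.07 with library totals and at 0.22 with housekeeping scaling, without passing. *Rcor3* changed most upward (1.48), and *Ehmt2*, a histone methyltransferase gene with the highest mean NPC level at 255 CPM, did not pass with TMM (-0.21, adjusted p = 0.112) and was higher with housekeeping scaling (0.42, adjusted p = 0.0189).

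Among the 10 genes, the patterns over the 8 libraries differed in how far they followed the common one. The Pearson correlation of log2(CPM + 1) with the mean of the 10 standardised genes, each gene itself included, was 0.98 for *Tubb3*, 0.94 for *Stmn3*, 0.90 for *Map2* and *Snap25*, 0.88 for *Gap43*, 0.82 for *Dcx*, 0.79 for *Ncam1*, 0.74 for *Mapt*, 0.48 for *Syn1* and -0.16 for *Stmn2*. Of 14081 other genes with a mean of at least 1 CPM, those most like the mean were *Mmp24* (0.993), *Ralgapa1* (0.987), *Scn3a* (0.982), *Napb* (0.982) and *Barhl1* (0.981). The 8 points share libraries, depth and stage, and the values are a description. *Mmp24*, a membrane-type metalloproteinase gene, stood at 2.78 to 3.43 CPM in ESCs. In the NPC libraries it stood at 3.45, 11.7, 9.36 and 22.4 CPM, the order of NPC libraries that each of the 10 genes had. *Scn3a*, a sodium channel gene, stood at 4.94 to 8.72 CPM in ESCs and at 8.91 to 65.6 CPM in NPCs.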

How the data were processed

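RNA-seq was analysed in 8 libraries, 2 for each of 4 groups. Per the labels and the methods, polyadenylated RNA was made into libraries with TruSeq Stranded mRNA or NEBNext Ultra II mRNA kits, aligned with TopHat2 to the mm39 genome masked at SNPs with a refGene annotation, and filtered to proper pairs of sufficient mapping quality. HTSeq, DESeq2 and edgeR are named in the submitters' processing notes, without versions. The deposited values are raw read counts per gene for 26263 genes, summed over both alleles, and the 5 closing entries, which name no gene, were left out. Reads without a gene made up 5.76% to 10.9% of a library and ambiguous reads 0.355% to 0.554%.

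Counts were fitted in R 4.3.3 with edgeR 4.0.16 (TMM, filterByExpr with a minimum count of 10, 4 group means, robust quasi-likelihood dispersions, 16399 genes tested, threshold 0.05 on the Benjamini-Hochberg adjusted p). Printed levels are counts divided by the gene total times the TMM factor, as CPM. Fold changes are NPC over ESC. The contrasts were stage over both crosses and within each, their interaction, and cross within each stage. Alternatives were RLE factors, library totals, housekeeping scaling, DESeq2 1.42.0, limma-voom (limma 3.58.1), other count filters, no robust estimation, a replicate block, a stricter threshold of 0.01, a fit of only the 4 libraries compared, and each library left out, where the spread of a lone library was taken from the other groups. The libraries with number 1 or number 2 alone and a block within each stage (for stage and for cross in NPCs) were added after seeing the data. Each fit of a single number used additive terms for stage and cross on 4 libraries, 1 in each group. It therefore had little information on the spread, and a gene can fail to pass there with a change of similar size. Intervals on pooled counts are exact at the 95% level and cover counting error only.

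Named besides the 10 genes were partners with overlapping exons, the largest and smallest change and the highest mean NPC level of each list, every broadly expressed relative, and the 5 genes most like the 10. A single gene that falls under this rule was left out and is not reported here. The members and lists were chosen with earlier results of these data known. Gene models came from the GENCODE annotation of GRCm39. Of the peripheral neuron list 9 of 10 symbols matched, and of all other lists every symbol did.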

Additional observations from a re-analysis of the deposited data

Results flagged for a closer look

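*Dcx* in the ESCs stood apart in 1 library. J/B replicate 2 was at 0.469 CPM (11 counts), whereas the nearest of the other 3 ESC libraries was at 0.0533 CPM (1 count), a gap that is 0.975 of the range of the group. This is past Dixon's 95% critical value for 4 libraries. Chance alone places about 1 in 20 groups past it where values are normally distributed, and 20 groups were looked at (10 genes in 2 stages). With 3 libraries at 1 count each, the ratio approaches 1 as the count in the fourth rises, so the limit says little here. The same library had the highest *Snap25* level of the ESCs, 1.58 CPM (37 counts). The cause was not tested.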

How the results depend on the processing

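Of 1159 values of the 10 genes under other settings, 1080 kept their direction and their side of the threshold, 18 no longer passed, 25 newly passed and 36 changed sign. The number of the 10 that fell was 0 in place of 1 with housekeeping scaling, over both crosses and within B/J, and within B/J also at an adjusted p under 0.01, and ran from 0 to 2 within B/J and from 0 to 1 within J/B with single libraries left out. Over both crosses, *Syn1* changed sign with library totals (0.31), housekeeping scaling (0.50), number 2 alone (0.30) and single libraries left out (-0.92 to 0.18), and *Mapt* (-0.66) and *Stmn3* (-0.18) with number 1 alone. Within B/J, *Stmn3* was at -0.10 in limma-voom and ran from -0.96 to 0.83 with single libraries left out, and *Tubb3* from -0.31 to 1.27. Within J/B, *Mapt* ran from -0.051 to 3.24 and *Syn1* from -0.53 to 1.02. The interaction ran from -2.65 to 0.43 for *Dcx*, -0.95 to 2.35 for *Mapt*, -0.64 to 1.06 for *Gap43* and -0.13 to 3.44 for *Snap25*. J/B against B/J in ESCs ran from -0.46 to 0.026 for *Tubb3*, -1.15 to 1.86 for *Mapt*, -0.13 to 0.38 for *Gap43*, -0.53 to 0.10 for *Syn1* and -2.44 to 1.03 for *Snap25*, which was at -0.021 in DESeq2, -0.46 in limma-voom and -0.21 with the replicate block. In NPCs it ran from -0.078 to 2.10 for *Dcx*, -0.49 to 1.22 for *Gap43* and -0.11 to 2.28 for *Snap25*. The cause was not tested. Over all genes, 6145 were higher and 5233 lower with TMM, 8016 and 3422 with library totals, and 8469 and 2824 with housekeeping scaling.

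Whether the replicate numbers pair the libraries was checked by the correlation of their deviations from the group means. It was 0.518 between the crosses in ESCs and 0.587 in NPCs, but 0.0489 to 0.0915 across the stages, so the numbers were not taken to pair the NPC with the ESC libraries, and no label ties them within a stage. With the replicate block 12010 genes were called in place of 11378, with 6 of the 10 genes higher and 1 lower as before, and *Map2* newly passed within B/J (1.30, adjusted p = 0.0294). With a block within each stage, added after seeing the data, 8 of the 10 were higher (42.5% of all genes), since *Mapt* (1.11, adjusted p = 0.00954) and *Stmn3* (0.73, adjusted p = 0.0064) newly passed, and J/B against B/J in NPCs called none of the 10 (lowest adjusted p = 0.109, *Stmn3*) and 4 of all genes. Of the 10 genes, 4 were higher with number 1 alone (24.2% of all genes) and 8 with number 2 alone (39.7%). Of the 5 neuronal intermediate filament genes, 2 or 3 in place of 1 were higher under 8 of these settings, DESeq2 and the replicate block included. *Dcx* and *Snap25* in ESCs rest on few counts, which limits the precision of their folds.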

Other observations

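Genes of peripheral neurons and of neuroendocrine cells share parts of the secretory and synaptic machinery with the 10 genes, and many were higher in NPCs. Of 9 peripheral neuron markers, 6 were higher, 1 was lower and 2 did not pass (median log2 fold change 2.53, 37.5% of all genes higher). *Prph*, the filament gene described above, was the one that fell (-2.12, adjusted p = 0.00204, edgeR). The summed level of the list was 18.7 to 28.4 CPM in ESCs and 21.3 to 71.2 CPM in NPCs, lowest in B/J NPC replicate 1 as it was for the 10 genes.

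Of 10 neuroendocrine markers, 8 were higher, 1 was lower and 1 did not pass, with a median of 6.31. *Scg5*, which encodes a chaperone of a prohormone convertase, changed most (9.82, adjusted p = 8.82e-05, edgeR), *Pcsk1*, a prohormone convertase gene, fell (-3.31, adjusted p = 0.00116), and *Cpe*, a carboxypeptidase gene of secretory granules, had the highest mean NPC level, 91.0 ± 44.2 CPM (SD, n = 4 libraries). The summed level was 14.6 to 21.7 CPM in ESCs and 106, 272, 242 and 398 CPM in NPC B/J replicates 1 and 2 and J/B replicates 1 and 2, and replicate 2 was above replicate 1 in both crosses for 8 of the 10.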
